A study of Homo sapiens with 8 samples.

Results

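The insulin-like growth factor (IGF) family members described here are the secreted IGF binding proteins IGFBP2, IGFBP3, IGFBP4, IGFBP5 and IGFBP6 and the receptors IGF1R, IGF2R and INSR. They were taken by gene symbol from a list of 9 names, and 8 were analysed among the 13771 genes of the deposited table. IGFBP7 was not analysed here. The family was chosen with results of these data in view, namely a higher IGFBP6 in DCIS.COM cells with HOTAIR and IGFBP4 in the study's gene list for MCF10A, so the HOTAIR comparisons of the 8 genes are given as descriptions with no p-value.

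RNA was sequenced from 4 groups of 2 libraries. MCF10A is a non-tumorigenic human breast epithelial line, and DCIS.COM is a line of that lineage that forms lesions like ductal carcinoma in situ in mice. Both lines carried a lentiviral pCDH vector, either empty (pCDH-empty) or with the long noncoding RNA HOTAIR (pCDH-HOTAIR), and all 4 groups had been selected in 10 µg/mL puromycin. Both lines grew in the same base medium with 5% horse serum. MCF10A also had 20 ng/mL EGF, 100 µg/mL hydrocortisone, 10 µg/mL insulin, 100 ng/mL cholera toxin, penicillin and streptomycin. No additive besides the serum is named for DCIS.COM, so that cell line and medium cannot be told apart. Insulin, which binds INSR and, more weakly, IGF1R, was therefore a named additive of one line only. The labels do not say that the 2 libraries of a group came from separate cultures, so p-values measure the spread between these libraries, which may be technical.

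IGF1 and IGF2 signal through IGF1R, a receptor tyrosine kinase closely related to the insulin receptor INSR, and the kinase passes the signal through IRS adaptors to PI3K, AKT and mTOR. IGF2R, the cation-independent mannose 6-phosphate receptor, takes up IGF2 for degradation and has no kinase. The binding proteins hold IGFs outside the cell and limit or prolong their access to receptors, and proteases such as pappalysin-1 (PAPPA) free the ligand by cutting them. In breast epithelium this system is known for its part in growth and survival.

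HOTAIR itself followed the labels, with 0.60 and 0.66 log2 CPM (the log2 of read counts scaled to library size) in MCF10A pCDH-empty, 7.90 and 7.92 in MCF10A pCDH-HOTAIR, 2.01 and 2.40 in DCIS.COM pCDH-empty and 7.66 and 7.57 in DCIS.COM pCDH-HOTAIR. Whole reads recovered from the deposited values summed to 19306864 to 34884841 per library. DCIS.COM pCDH-empty 1 stood apart, with 18.9% of its reads on RN7SL1 and RN7SL2 against 11.1% to 15.0% in the other 7 libraries. All 4 basal mammary markers analysed were expressed in both lines, with KRT5 at 11.99 to 12.14 log2 CPM in MCF10A and 9.40 to 9.68 in DCIS.COM, KRT14 at 10.28 to 10.74 and 5.23 to 5.94, and KRT17 at 11.75 to 12.02 and 8.98 to 9.54. TP63 went the other way, at 3.57 to 4.14 log2 CPM in MCF10A and 4.28 to 4.91 in DCIS.COM. The luminal keratins were higher in DCIS.COM, with KRT8 at 9.17 to 9.24 log2 CPM in MCF10A and 11.32 to 11.76 in DCIS.COM, KRT18 at 9.08 to 9.22 and 10.72 to 11.09, and KRT19 at 1.42 to 1.59 and 3.40 to 3.58. Of the epithelial markers, EPCAM was at 5.75 to 6.13 in MCF10A and 8.29 to 8.53 in DCIS.COM, and CDH1 at 8.62 to 8.84 and 8.08 to 8.20. ESR1, the estrogen receptor, was low in both, at 1.10 to 1.72 and 1.18 to 1.54. PECAM1, an endothelial marker, was at 0.83 to 1.47 log2 CPM in MCF10A and 3.35 to 3.75 in DCIS.COM, and the fibroblast markers, PTPRC, CDH5 and PGR were not analysed here. The part of these keratin and marker differences in the results on the IGF genes was not tested.

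The promoters of 4 of the genes that differed between the cell lines are shown. IGFBP6 and FOXO1, which also differed strongly, are not among them. IGFBP2 and IGFBP5 are neighbours on chromosome 2 whose annotated bodies face each other 7668 bp apart, and both were near 0 in MCF10A. IGFBP4 and PAPPA, its protease, were both lower in DCIS.COM. Each sequence is the 250 bases before the start of the canonical GENCODE transcript on GRCh37, written 5′ to 3′ on the strand of the gene. Capitals mark GGGCGG or its reverse complement CCGCCC (the GC box) and TATAAA on either strand (the TATA box), which do not overlap each other here. The windows are chr2:217497893-217498142 (plus strand) for IGFBP2, chr2:217560273-217560522 (minus strand) for IGFBP5, chr17:38599452-38599701 (plus strand) for IGFBP4 and chr9:118915820-118916069 (plus strand) for PAPPA. The IGFBP2 window lies within an intron of a longer IGFBP2 transcript, and the IGFBP5 window overlaps an exon of the antisense gene DIRC3-AS1.
IGFBP2: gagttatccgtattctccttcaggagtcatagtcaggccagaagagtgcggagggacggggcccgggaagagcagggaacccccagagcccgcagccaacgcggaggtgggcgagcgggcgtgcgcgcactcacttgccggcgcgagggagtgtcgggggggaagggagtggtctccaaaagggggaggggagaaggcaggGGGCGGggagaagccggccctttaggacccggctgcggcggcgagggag
IGFBP5: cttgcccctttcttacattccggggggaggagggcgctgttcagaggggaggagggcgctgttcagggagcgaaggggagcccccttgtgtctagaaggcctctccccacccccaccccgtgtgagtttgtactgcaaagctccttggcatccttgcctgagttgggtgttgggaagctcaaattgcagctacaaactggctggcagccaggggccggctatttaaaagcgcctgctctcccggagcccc
IGFBP4: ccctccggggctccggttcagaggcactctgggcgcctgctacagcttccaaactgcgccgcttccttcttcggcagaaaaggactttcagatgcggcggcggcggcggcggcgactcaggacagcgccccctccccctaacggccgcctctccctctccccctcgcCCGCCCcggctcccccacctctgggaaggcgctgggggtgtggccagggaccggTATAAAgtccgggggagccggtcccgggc
PAPPA: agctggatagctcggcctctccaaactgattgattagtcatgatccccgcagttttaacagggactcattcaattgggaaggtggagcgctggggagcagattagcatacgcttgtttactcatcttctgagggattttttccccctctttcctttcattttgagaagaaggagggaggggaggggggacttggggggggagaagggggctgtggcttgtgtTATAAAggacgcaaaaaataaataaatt
The IGFBP2 window held 22 CpG dinucleotides and 1 GC box, and the IGFBP5 window 8 CpG and neither motif. The IGFBP4 window held 24 CpG, 1 GC box and 1 TATA box, and the PAPPA window 5 CpG and 1 TATA box. Over 19818 promoters of protein-coding genes with the same window, the median was 18 CpG, 59.2% held the GC box and 9.28% held the TATA box. A match is a match of letters only.

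Among the members, IGFBP6 and IGFBP4 were lower in DCIS.COM than in MCF10A, IGFBP2 and IGFBP5 had reads almost only in DCIS.COM, and IGFBP3 was the most abundant member per kilobase in all 8 libraries. These 4 genes met the criteria of a call in DCIS.COM over MCF10A with the empty vector and with the HOTAIR vector, comparisons of different libraries whose spread was estimated in 1 fit. A call needed both a difference of 1.5-fold or more and a limma Benjamini-Hochberg adjusted p-value under 0.05, adjusted over all 13771 genes. The background was high, since 46.3% of all genes were called between the lines with the empty vector and 43.7% with the HOTAIR vector. Against that, 4 of 8 members is not a result about the family. IGFBP2 and IGFBP5 also entered the table only through DCIS.COM, since genes were kept there for passing 0.5 CPM in 2 or more libraries, so these 2 had to differ and their calls are no evidence of a difference. With the p-value threshold alone, 7 of 8 members passed with either vector, against 68.2% of all genes with the empty vector and 65.5% with the HOTAIR vector. Not all of these passes held in the alternative settings described below. In those that left no library out, the largest limma adjusted p-values with the empty vector were 0.106 for IGFBP3 and 0.0829 for IGF2R. With the HOTAIR vector they were 0.0538 for IGF1R and 0.0719 for INSR. The 2 libraries of one line lay wholly above the 2 of the other for all 8 members, 5 higher and 3 lower in DCIS.COM, where 40.7% and 40.9% of all genes did so with the empty vector and 44.8% and 44.3% with the HOTAIR vector. In bulk RNA, fewer expressing cells and less RNA per cell cannot be told apart.

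**Figure D1:**
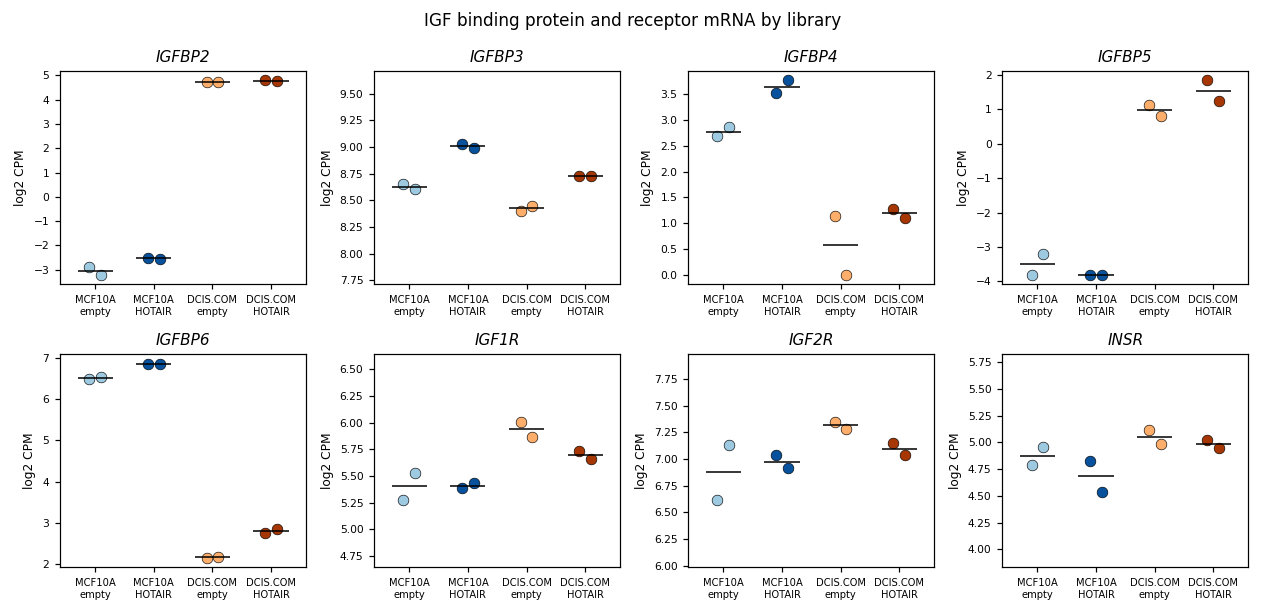
Log2 CPM of the 8 members in each library (points, 2 per group) with the group mean (line), and a separate vertical axis for each gene. IGFBP2 and IGFBP5 lie above 0 only in DCIS.COM, IGFBP6 lies at 6.48 or more in MCF10A and at 2.86 or less in DCIS.COM, and the receptors span under 1 log2 unit each.

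IGFBP2 (Entrez gene 3485, chr2:217497551-217529159, plus strand), a binding protein that prefers IGF2, had 2 and 1 reads in MCF10A pCDH-empty, 2 and 2 in MCF10A pCDH-HOTAIR, 798 and 699 in DCIS.COM pCDH-empty, and 978 and 902 in DCIS.COM pCDH-HOTAIR. It was thus at the limit of detection in every MCF10A library and moderately expressed in every DCIS.COM library, at 4.71 to 4.79 log2 CPM. Summed over libraries and scaled to depth, the ratio of DCIS.COM to MCF10A was 507 with the empty vector (95% interval 173 to 2461) and 268 with the HOTAIR vector (104 to 983), intervals that cover counting error only. The fitted log2 fold changes, 7.76 and 7.30 (SE 0.17), depend on the prior count at such low values, and no p-value is given for a gene that had to differ.

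IGFBP5 (3488, chr2:217536828-217560272, minus strand), the most conserved binding protein and one that is high in the involuting mammary gland, had 0 and 1 reads in MCF10A pCDH-empty and none in either MCF10A pCDH-HOTAIR library. In DCIS.COM it had 64 and 45 reads with the empty vector and 125 and 77 with HOTAIR. Its level was low even there, at 0.81 to 1.84 log2 CPM. The ratio with the empty vector was 111 (95% interval 19.5 to 4414), and with HOTAIR it was at least 38.3-fold higher in DCIS.COM, taking a floor of 3 reads over the MCF10A group, or 0.0762 CPM. As for IGFBP2, no p-value is given. DIRC3-AS1 overlaps IGFBP5 on the opposite strand, and because the use of strand in counting is not stated, the source of these few reads is uncertain.

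IGFBP6 (3489, chr12:53491220-53496129, plus strand), which binds IGF2 with marked preference, went the other way. Its log2 CPM was 6.48 and 6.54 in MCF10A pCDH-empty, 6.85 and 6.85 in MCF10A pCDH-HOTAIR, 2.16 and 2.19 in DCIS.COM pCDH-empty and 2.76 and 2.86 in DCIS.COM pCDH-HOTAIR. All 4 MCF10A libraries exceeded all 4 DCIS.COM libraries. IGFBP6 was 20.2-fold lower in DCIS.COM with the empty vector (log2 fold change -4.34, SE 0.077, limma adjusted p = 7.2e-09) and 16.5-fold lower with the HOTAIR vector (log2 fold change -4.04, SE 0.077, limma adjusted p = 1.11e-08).

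IGFBP4 (3487, chr17:38599702-38613977, plus strand), a binding protein known as an inhibitor of IGF action, had a log2 CPM of 2.69 and 2.87 in MCF10A pCDH-empty, 3.53 and 3.77 in MCF10A pCDH-HOTAIR, 1.14 and 0.01 in DCIS.COM pCDH-empty and 1.28 and 1.11 in DCIS.COM pCDH-HOTAIR. The DCIS.COM values rest on 25 to 84 reads, and the 2 DCIS.COM pCDH-empty libraries lay far apart. IGFBP4 was 4.61-fold lower in DCIS.COM with the empty vector (log2 fold change -2.21, SE 0.32, limma adjusted p = 0.000407) and 5.48-fold lower with the HOTAIR vector (log2 fold change -2.45, SE 0.32, limma adjusted p = 0.000225).

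IGFBP3 (3486, chr7:45951844-45961473, minus strand), the main carrier of IGFs in blood, had the smallest log2 fold changes of the binding proteins between the lines, smaller in size than those of IGF1R and IGF2R with the empty vector. Its log2 CPM was 8.65 and 8.60 in MCF10A pCDH-empty, 9.03 and 8.99 in MCF10A pCDH-HOTAIR, 8.40 and 8.45 in DCIS.COM pCDH-empty, and 8.73 and 8.72 in DCIS.COM pCDH-HOTAIR. Within each vector the DCIS.COM libraries were the lower ones. The log2 fold change was -0.20 with the empty vector and -0.29 with the HOTAIR vector (SE 0.059 each). Both passed the p-value threshold (limma adjusted p = 0.0156 and 0.00303) but were under 1.5-fold, so IGFBP3 was not called. The limma adjusted p-value with the empty vector was up to 0.106 in the alternatives that left no library out.

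Scaled to transcript length, IGFBP3 had the largest share of binding protein mRNA in every group, and the gene in second place differed between the lines. The summed level of the 5 binding proteins, in CPM per kilobase of canonical transcript, was 250.6 ± 0.51 (SD, n = 2) in MCF10A pCDH-empty, 325 ± 2.8 in MCF10A pCDH-HOTAIR, 156 ± 2.9 in DCIS.COM pCDH-empty, and 190 ± 0.39 in DCIS.COM pCDH-HOTAIR. IGFBP3 made up 60.3 ± 1.3%, 60.7 ± 0.62%, 84.4 ± 0.68% and 85.2 ± 0.064% of this sum in the same order. The share of IGFBP6 was 38.4 ± 1.2% and 37.5 ± 0.4% in MCF10A against 3.01 ± 0.015% and 3.86 ± 0.2% in DCIS.COM. The share of IGFBP2 was 0.0143 ± 0.0053% and 0.0221 ± 0.00029% in MCF10A against 12.0 ± 0.37% and 10.1 ± 0.15% in DCIS.COM. IGFBP2 thus stood second to IGFBP3 in DCIS.COM, where IGFBP6 stood second in MCF10A. The highest group mean was 1.75% for IGFBP4, in MCF10A pCDH-HOTAIR, and 0.245% for IGFBP5, in DCIS.COM pCDH-HOTAIR. With all annotated exons as the length, the IGFBP2 share in DCIS.COM was 6.53% and 5.46%, and the order of IGFBP3, IGFBP2 and IGFBP6 in DCIS.COM was kept. The lead of IGFBP2 was then narrow in the DCIS.COM pCDH-HOTAIR libraries, at 5.52% and 5.41% against 4.73% and 5.09% for IGFBP6. In DCIS.COM pCDH-empty it was 6.67% and 6.39% against 3.89% and 3.86%. These are mRNA levels, and protein was not measured here.

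**Figure D2:**
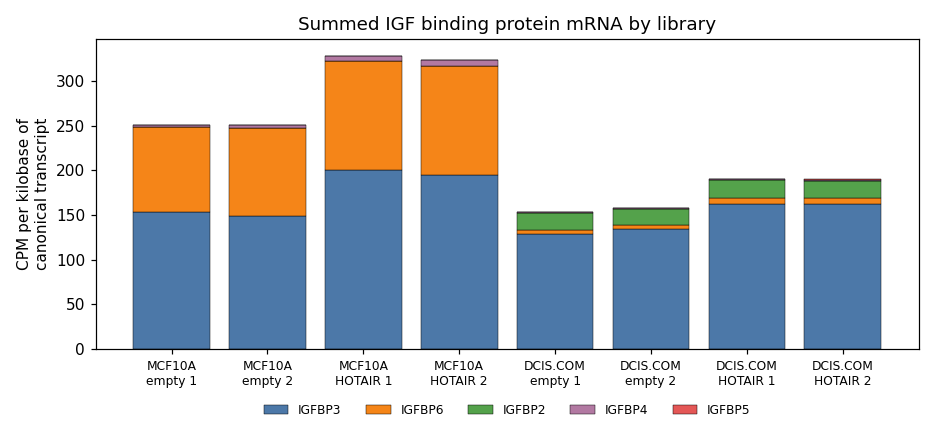
Stacked levels of the 5 binding proteins in each library, in CPM per kilobase of canonical transcript, on an axis from 0. IGFBP3 is the largest segment in every bar, with IGFBP6 second in the 4 MCF10A libraries and IGFBP2 second in the 4 DCIS.COM libraries.

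Per kilobase, the order of all 8 members in MCF10A pCDH-empty was IGFBP3 (151 ± 3.6), IGFBP6 (96.3 ± 2.8), IGF2R (8.48 ± 2.1), IGF1R (3.47 ± 0.42), INSR (3.1 ± 0.26), IGFBP4 (3.08 ± 0.27), IGFBP2 and IGFBP5. There IGF1R overlapped INSR and INSR overlapped IGFBP4, so the order of those neighbours is not set beyond their spread. In MCF10A pCDH-HOTAIR, IGFBP4 (5.69 ± 0.66) took the fourth place, above IGF1R (3.47 ± 0.079). In DCIS.COM pCDH-empty the order was IGFBP3 (131 ± 3.5), IGFBP2 (18.6 ± 0.23), IGF2R (11.3 ± 0.35), IGF1R (5.01 ± 0.34), IGFBP6 (4.68 ± 0.065), INSR (3.5 ± 0.23), IGFBP4 (0.694 ± 0.38) and IGFBP5 (0.305 ± 0.051). In DCIS.COM pCDH-HOTAIR, IGFBP6 (7.33 ± 0.36) stood above IGF1R (4.23 ± 0.17). No other neighbours overlapped, though with 2 libraries a group that is a weak criterion. The order of IGFBP2 and IGF2R in DCIS.COM depended on the length used. With all annotated exons as the length, IGF2R lay above IGFBP2 in all 4 DCIS.COM libraries. In DCIS.COM pCDH-HOTAIR the gap was narrow, at 6.264 and 5.807 for IGF2R against 5.802 and 5.669 for IGFBP2. With that length, IGFBP4 lay above INSR in both MCF10A pCDH-empty libraries.

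No receptor was called between the lines in the fit of all 8 libraries. IGF1R (3480, chr15:99191768-99507759, plus strand) had a log2 CPM of 5.28 and 5.53 in MCF10A pCDH-empty, 5.39 and 5.43 in MCF10A pCDH-HOTAIR, 6.01 and 5.87 in DCIS.COM pCDH-empty, and 5.74 and 5.66 in DCIS.COM pCDH-HOTAIR. Every DCIS.COM library was above every MCF10A library, by 1.45-fold with the empty vector (log2 fold change 0.53, SE 0.097, limma adjusted p = 0.00148) and 1.22-fold with the HOTAIR vector (log2 fold change 0.29, limma adjusted p = 0.0304). Both were short of the 1.5-fold needed for a call. With the HOTAIR vector, the limma adjusted p-value was up to 0.0538 in the alternatives that left no library out. Without MCF10A pCDH-empty 2 the log2 fold change with the empty vector was 0.66, without DCIS.COM pCDH-empty 2 it was 0.60, and after quantile normalization it was 0.60, and each of these was called.

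IGF2R (3482, chr6:160390114-160534539, plus strand) was the most abundant of the 3 receptors per kilobase in every group. Its log2 CPM was 6.62 and 7.13 in MCF10A pCDH-empty, 7.04 and 6.91 in MCF10A pCDH-HOTAIR, 7.35 and 7.28 in DCIS.COM pCDH-empty, and 7.15 and 7.04 in DCIS.COM pCDH-HOTAIR. The MCF10A pCDH-empty pair was at least as far apart as the 2 lines were. The log2 fold change of DCIS.COM over MCF10A was 0.44 with the empty vector (SE 0.15, limma adjusted p = 0.028) and 0.12 with the HOTAIR vector (SE 0.15, limma adjusted p = 0.51). The first was 0.70 and called without MCF10A pCDH-empty 2. AIRN, an antisense RNA, overlaps IGF2R, and its reads cannot be told apart without strand.

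INSR (3643, chr19:7112266-7294425, minus strand) was lowest of the receptors, with a log2 CPM of 4.79 and 4.96 in MCF10A pCDH-empty, 4.83 and 4.54 in MCF10A pCDH-HOTAIR, 5.12 and 4.98 in DCIS.COM pCDH-empty, and 5.03 and 4.95 in DCIS.COM pCDH-HOTAIR. The groups lay close together in both vectors. The log2 fold change of DCIS.COM over MCF10A was 0.17 with the empty vector (SE 0.12, limma adjusted p = 0.211) and 0.30 with the HOTAIR vector (SE 0.12, limma adjusted p = 0.0482), neither of which was called. The ratio of IGF1R to INSR per kilobase was 1.08 to 1.44 over the 8 libraries, and the ranges of the 2 lines overlapped.

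The differences between the HOTAIR and empty vectors are described member by member. No member was called in MCF10A, where 0.0218% of all genes were, and IGFBP6 was the 1 member called in DCIS.COM, where 0.0871% were. Nothing is read from these counts, since the family was chosen with them known. IGFBP3 was higher in both HOTAIR libraries of both lines, by a log2 fold change of 0.39 in MCF10A and 0.30 in DCIS.COM (SE 0.059 each). IGFBP6 was higher by 0.34 in MCF10A and 0.64 in DCIS.COM (SE 0.077 each), and its smallest and largest values in DCIS.COM with a library left out were 0.59 and 0.69.

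IGFBP4 was higher by 0.87 in MCF10A and 0.62 in DCIS.COM (SE 0.32 each). In MCF10A the HOTAIR libraries had 223 and 271 reads and the empty ones 199 and 192, at a lower depth for HOTAIR, and the groups did not overlap. In DCIS.COM they overlapped. The DCIS.COM difference rested on pCDH-empty 2 with its 25 reads, since without it the log2 fold change was 0.06 and without pCDH-empty 1 it was 1.19. IGFBP5 was higher by 0.57 in DCIS.COM (SE 0.32), with a range of 0.27 to 0.87 with each library left out. In MCF10A, IGFBP5 and IGFBP2 stood at 0 to 2 reads a library, so no difference was detectable at this depth. IGFBP2 in DCIS.COM differed by 0.05 (SE 0.17).

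The log2 fold changes of IGF1R with HOTAIR were 0.01 in MCF10A and -0.24 in DCIS.COM (SE 0.097 each), those of IGF2R were 0.10 and -0.22 (SE 0.15 each), and those of INSR were -0.19 and -0.07 (SE 0.12 each). The 2 HOTAIR libraries lay below the 2 empty ones for IGF1R and IGF2R in DCIS.COM, and the groups overlapped for all 3 receptors in MCF10A. Over the 8 members, the groups were apart and higher with HOTAIR for 4 members in MCF10A (22.5% of all genes) and for 4 in DCIS.COM (24.7%), and apart and lower for 0 (24.8%) and 2 (24.5%). IGFBP2 in MCF10A is 1 of these by the scaling to depth alone, with 2 and 1 reads against 2 and 2.

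**Figure D3:**
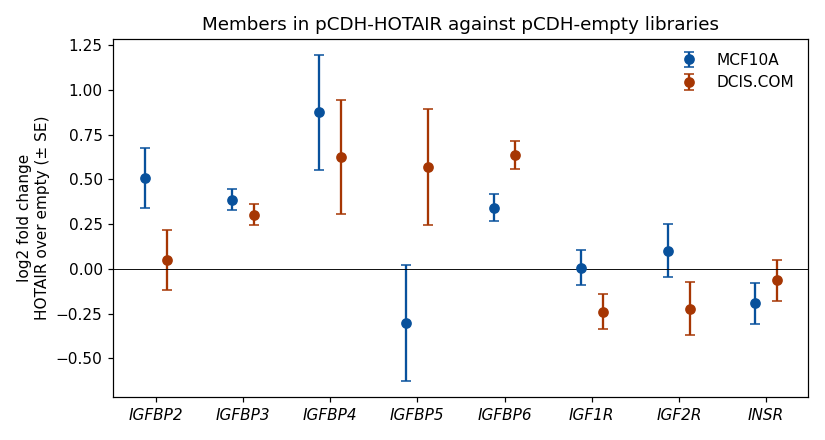
Log2 fold change of each member in pCDH-HOTAIR over pCDH-empty libraries, with bars of 1 SE from the limma fit of all 8 libraries (2 libraries a group). IGFBP3, IGFBP4 and IGFBP6 lie above 0 in both lines, and the 2 lowest values in DCIS.COM are IGF1R at -0.24 and IGF2R at -0.22.

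Over the 8 libraries, centred on the mean of each cell line, the genes most like IGFBP6 were ARID3A (Pearson r 0.986), ZFP90 (0.986) and PSAP (0.984), and those most like IGFBP4 were LENG9 (0.979), SPRR2A (0.978) and GALNT2 (0.976). With so few libraries, 134 genes reached 0.9 with IGFBP6 and 98 with IGFBP4. Among members, IGFBP3 and IGFBP6 had an r of 0.90, and IGF1R and IGF2R 0.85. Other pairs were negative, with IGFBP2 and INSR at -0.65 and IGFBP6 and IGF1R at -0.64. The centring keeps the differences between the vectors described above, so these correlations are not separate from them. All points share the depth and composition of their libraries.

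The rest of the pathway was followed in a list of 49 genes, of which 39 were analysed. The ligands IGF1, IGF2 and INS, the binding proteins IGFBP1, IGFBPL1 and IGFALS, the receptor INSRR, and PAPPA2, IRS4 and IGF2BP1 were not analysed here. Between the lines, 20 of the 39 were called with the empty vector (7 higher and 13 lower in DCIS.COM) and 20 with the HOTAIR vector (5 higher and 15 lower), or 51.3% each time, counts that hold SOCS1, which had to differ. Of all genes, 22.5% were called higher and 23.8% lower with the empty vector, and 22% and 21.7% with the HOTAIR vector. The median log2 fold change of the list was -0.29 and -0.23, against -0.00012 and 0.0035 over all genes. The calls shared by both vectors were 17 genes, and 38.4% of all genes were called in both. Without DCIS.COM pCDH-empty 1, the library that stood apart, 20 pathway genes and 4 members were again called with the empty vector.

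Among the genes that act on the binding proteins, PAPPA (chr9:118916070-119164600, plus strand), which cuts IGFBP4 and IGFBP5, had a log2 CPM of 6.04 and 6.37 in MCF10A pCDH-empty, 6.52 and 6.59 in MCF10A pCDH-HOTAIR, 2.46 and 1.87 in DCIS.COM pCDH-empty, and 1.89 and 2.15 in DCIS.COM pCDH-HOTAIR. It was 16.5-fold lower in DCIS.COM with the empty vector (log2 fold change -4.04, SE 0.20, limma adjusted p = 7.11e-07) and 23.2-fold lower with the HOTAIR vector (log2 fold change -4.53, limma adjusted p = 3.82e-07). The antisense genes PAPPA-AS1 and PAPPA-AS2 overlap it. HTRA1, a secreted serine protease that also cuts binding proteins, ranged from 6.24 to 6.83 log2 CPM over the MCF10A libraries and from 4.47 to 4.76 over the DCIS.COM libraries, lower by 3.1-fold with the empty vector (limma adjusted p = 2.82e-06) and 4.36-fold with the HOTAIR vector (limma adjusted p = 6.55e-07).

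The stanniocalcins STC1 and STC2 bind PAPPA and block it. STC2 was lower in DCIS.COM by a log2 fold change of -0.46 with the empty vector (limma adjusted p = 0.0106, under 1.5-fold) and -0.72 with the HOTAIR vector (limma adjusted p = 0.001, called). STC1 was not called, with log2 fold changes of 0.42 and 0.35 (limma adjusted p = 0.0113 and 0.024). With each library left out, the log2 fold change with the empty vector ranged from 0.24 to 0.59 for STC1 and from -0.66 to -0.25 for STC2. The largest of these in size were past 1.5-fold. In the alternatives that left no library out, the limma adjusted p-values with the empty vector were up to 0.0544 for STC1 and 0.051 for STC2. Per kilobase, STC1 stood at 25.4 to 34.5 CPM in the DCIS.COM libraries and STC2 at 6.51 to 8.65, where PAPPA stood at 0.326 to 0.494. The order was the same in the MCF10A libraries, with STC1 at 20.3 to 26.5, STC2 at 10.1 to 14.3 and PAPPA at 5.98 to 8.75.

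**Figure D4:**
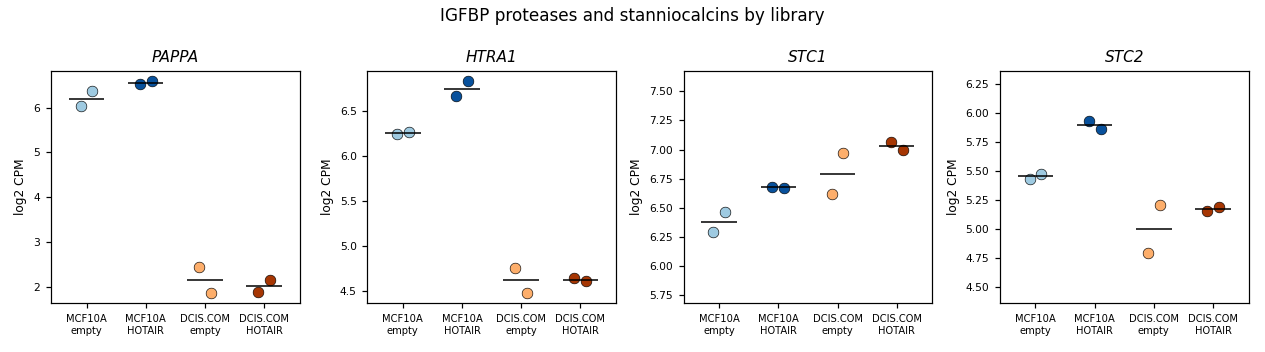
Log2 CPM of the binding protein proteases PAPPA and HTRA1 and of the stanniocalcins STC1 and STC2 in each library (points) with the group mean (line), with a separate vertical axis for each gene. PAPPA is at 6.04 to 6.59 in MCF10A and 1.87 to 2.46 in DCIS.COM, while STC1 stays between 6.29 and 7.06 in all libraries.

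Downstream of the receptors, 3 of 7 adaptors were called lower in DCIS.COM with the empty vector and 4 of 7 with the HOTAIR vector, where 23.8% and 21.7% of all genes were, and 0 were called higher. GRB2, which was not called, lay apart and higher in DCIS.COM with both vectors, at log2 fold changes of 0.32 and 0.30, and was added here after its values were seen. GRB10, an adaptor that restrains insulin and IGF1 receptor signaling, had log2 fold changes of -2.47 and -2.63 (limma adjusted p = 2.17e-06 and 1.57e-06). IRS1 and IRS2, docking proteins of both receptors, were added here after their values were seen. IRS1 had log2 fold changes of -1.89 and -2.41 (limma adjusted p = 3.11e-06 and 8.09e-07). IRS2 was not called. It was at 0.21 with the empty vector (limma adjusted p = 0.181), where the groups overlapped, and at -0.53 with the HOTAIR vector (limma adjusted p = 0.00754). The transcription factor FOXO1, which AKT keeps out of the nucleus, was at 6.16 to 6.35 log2 CPM in MCF10A and 2.13 to 2.54 in DCIS.COM, 16.4-fold lower with the empty vector (limma adjusted p = 2.23e-08) and 14.3-fold lower with the HOTAIR vector (limma adjusted p = 2.78e-08). The other FOXO factors analysed, added here after their values were seen, differed less. FOXO3 was called lower, at log2 fold changes of -0.64 and -0.59. FOXO4 was not called, at -0.061 and -0.090, and its groups overlapped. Of 6 phosphatases and SOCS genes, 4 were called lower and 1 higher with either vector, and the 4 include SOCS1. The shares of all genes called lower were 23.8% and 21.7%, and those called higher 22.5% and 22%. The sixth, PHLPP2, was apart and higher with both at log2 fold changes of 0.34 and 0.32 but was not called. SOCS1, a feedback inhibitor of cytokine signaling, had 32 to 46 reads in MCF10A libraries and 1 to 6 in DCIS.COM libraries, and it passed 0.5 CPM in MCF10A only, so it had to differ and no p-value is given.

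Of the 16 genes of the PI3K, AKT and mTOR group, 5 were called higher and 2 lower in DCIS.COM with the empty vector, and 3 higher and 2 lower with the HOTAIR vector. The shares of all genes called higher were 22.5% and 22%, and those called lower 23.8% and 21.7%. The median log2 fold change of the group was -0.0060 and -0.098. Outside it, the phosphatase PHLPP1 and IGF2BP3 were called higher. PIK3R3, a regulatory subunit of PI3K, had a log2 fold change of 2.32 and 2.43 (limma adjusted p = 7.83e-08 and 6.28e-08). The other regulatory subunits analysed, added here after their values were seen, did not follow it. PIK3R1 was called lower, at log2 fold changes of -1.34 and -1.01 (limma adjusted p = 1.95e-05 and 0.000104). PIK3R2 was not called, at 0.00017 and -0.14. IGF2BP3, which binds IGF2 mRNA, had 29 to 44 reads in MCF10A libraries and 628 to 951 in DCIS.COM libraries, 16.6-fold higher with the empty vector (limma adjusted p = 8.18e-07) and 15.8-fold with the HOTAIR vector (limma adjusted p = 9.27e-07).

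With HOTAIR against the empty vector, limma called 0 of the 39 pathway genes in either line, and 5 in MCF10A and 7 in DCIS.COM had an unadjusted p-value under 0.05 (7.28% and 17.5% of all genes). By voom on the recovered reads the count was also 0 in both. The list's median log2 fold change was 0.03 in MCF10A and 0.0043 in DCIS.COM. PAPPA differed by 0.35 (limma adjusted p = 0.808) and -0.14 (0.697), HTRA1 by 0.50 (0.247) and 0.0067 (0.979), STC1 by 0.30 (0.597) and 0.24 (0.31), and STC2 by 0.44 (0.414) and 0.17 (0.44). The difference between the lines in the response to HOTAIR, tested as an interaction in limma, passed for 0 of 39, with 6 at an unadjusted p-value under 0.05 and a smallest adjusted p-value of 0.309.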

How the data were processed

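RNA of MCF10A and DCIS.COM cells was sequenced, 2 libraries for each of 4 groups taken from the labels. As the methods of the study state, Rsubread aligned the reads to hg19 (GRCh37) and featureCounts counted them on UCSC known genes. The authors deposited log2 CPM normalized with edgeR for 13771 genes, each above 0.5 CPM in at least 2 libraries, and the prior count and the use of strand are not given in the sources used here. Whole reads were recovered from the steps of the values (100% within 0.05 reads). Counting error is largest in the least deep libraries, MCF10A pCDH-HOTAIR.

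Here limma 3.58.1 (R 4.3.3, 4 group means, 8 libraries, mean-variance trend) was fitted over all genes, with a call at 1.5-fold or more and an adjusted p-value (Benjamini-Hochberg) under 0.05, and was tested on simulated data. For 2 libraries against 2, the smallest two-sided p of an exact permutation test is 0.333, so none was used for single genes. The members and lists were chosen with earlier results of these data known. Named genes were all members, HOTAIR, the ligands, binding proteins and proteases of the pathway list, up to 5 called others of largest log2 fold change in each comparison, and the 3 genes most like IGFBP6 and IGFBP4. Lengths are of canonical GENCODE release 44 transcripts, adopted after the length of all exons was seen to be 4.742 kb for IGFBP2 against 1.414 kb. Alternatives were pseudocounts of 0.1 and 1 CPM, median centring, quantile normalization, a mean CPM of at least 2, no trend, a replicate block, separate fits, other fold thresholds and each library left out. The voom fit, the interaction and the length of all exons were added after seeing the data. The values of 1 gene of the pathway list are not reported here, and it is included in the counts over the list.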

Additional observations from a re-analysis of the deposited data

How the results depend on the processing

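No result changed direction past its threshold. The 4 members called between the cell lines, of which IGFBP2 and IGFBP5 had to differ, were 7 with either vector when no fold-change threshold was used, and ranged from 4 to 6 with the empty vector and were 4 with the HOTAIR vector as each library was left out. Pathway genes called between the lines, 20 with either vector, were 10 (empty vector) and 8 (HOTAIR vector) at a log2 fold change of at least 1.5, 31 with the HOTAIR vector at no fold-change threshold, and 19 to 23 and 19 to 22 with each library left out. For HOTAIR over empty vector, nothing is read from the counts of members, since the family was chosen with them known. In DCIS.COM, the 1 member called was 0 with a pseudocount of 1, quantile normalization, no trend, separate fits, voom, or a log2 fold change of at least 1.5, and 0 to 2 with each library left out. It was 2 without DCIS.COM pCDH-empty 1. In MCF10A the count of 0 became 1 without DCIS.COM pCDH-empty 1 or without DCIS.COM pCDH-empty 2, with a range of 0 to 1. The pathway count of 0 in DCIS.COM ranged from 0 to 1 and was 1 without DCIS.COM pCDH-empty 2. With a library left out, a group of 1 is assumed to vary like the others. The causes were not tested.

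The replicate numbers did not pair the libraries, as the correlations of same-numbered deviations ran from -0.016 to 0.0661, under the 0.1 needed. With the replicate number as a block, the members called were 4 and 4 between the lines, 0 in MCF10A and 0 in DCIS.COM, the pathway genes called were 20, 20, 0 and 0, and genes called over the whole table were 6378, 6031, 2 and 20 against 6370, 6018, 3 and 12 without it.

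Depth limits IGFBP2 and IGFBP5 in MCF10A (0 to 2 reads) and IGFBP4 in DCIS.COM (25 to 84 reads). With a pseudocount of 1 CPM, the log2 fold change between the lines with the empty vector was 1.51 for IGFBP5 and 4.70 for IGFBP2, against 4.47 and 7.76 as deposited.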
